A study of Mus musculus with 6 samples.

Results

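The genes described here are 10 pattern-recognition genes of BV2 cells: 6 C-type lectin receptors (Clec4e, Clec4d, Clec4n, Clec5a, Clec7a and Clec12a), the adaptor gene Card9, the cytosolic receptor genes Nod1 and Nod2, and Ripk2, the kinase that serves both NOD receptors. They were taken by symbol from the 55401 mouse genes listed, and all 10 had a row and passed the filter on low counts. BV2 is an immortalised mouse microglial line. The cells of 3 libraries received lipopolysaccharide (LPS, a cell wall component of Gram-negative bacteria) and those of 3 libraries received vehicle, with neither dose nor duration in the labels. The labels name no genetic change in either group, and the line stands as a single model of microglia. Separate cultures are not mentioned, and every p-value here therefore reflects library-to-library spread alone, which may be technical. In RNA from whole cultures, fewer cells of a kind and less RNA per cell cannot be told apart.

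C-type lectin receptors are surface proteins of myeloid cells that bind sugars and lipids of fungi, mycobacteria and damaged cells. The activating ones signal through ITAM sequences, carried in their own tail or in the partner chains Fcer1g and Tyrobp, to the kinase Syk and from there to a complex of Card9, Bcl10 and Malt1 that activates NF-kB. NOD receptors sit in the cytosol, recognise fragments of bacterial peptidoglycan and recruit Ripk2, which is ubiquitinated and activates the same transcription factor. None of the 10 proteins is the classical receptor for LPS, which acts through Tlr4.

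Library totals ran from 45969690 to 59023474 estimated counts. The low counts piled up at a spacing of 3.46 to 3.71 in the different libraries, so a count is not a number of reads. Levels are given as CPM (each library's counts on one scale, after TMM normalisation), and changes as log2 fold changes of LPS against Vehicle from edgeR's quasi-likelihood test, with SE and 3 libraries per group throughout. Microglia and macrophage markers summed to 2827 to 3053 CPM in the Vehicle libraries and 2175 to 2606 CPM in the LPS libraries, led by Cd68. Of these 12 markers 1 rose, 4 fell and Fcrls did not pass the filter. The tested ones had a median log2 fold change of -0.5. Across all tested genes 12.7% rose and 10.9% fell, and the median was -0.02. Lymphocyte and fibroblast markers summed to under 1 CPM in every library, and the lymphocyte markers Cd3e, Ncr1 and Nkg7 were at 0 throughout. Summed markers in Vehicle and LPS were 4.85 to 8.21 and 1.70 to 6.04 CPM for astrocytes, 4.88 to 10.8 and 1.74 to 10.8 CPM for neurons, and 4.68 to 5.51 and 6.01 to 7.83 CPM for dendritic cells (Flt3 and Cd209a at 0). Oligodendrocyte markers, led by Cnp, summed to 35.9 to 42.9 CPM over all 6 libraries. No marker of these 4 lists was called. Snap25, the highest neuronal marker, was at 0 in LPS 1 and at 5.49 and 2.50 CPM in LPS 2 and 3, against 1.44 to 4.52 CPM in Vehicle. Of 7 neutrophil markers 1 was tested, S100a8, which rose from 2.54 ± 0.66 to 12.5 ± 0.91 CPM (SD, n = 3), while Ly6g, Elane and Ngp were at 0 in all libraries. The part of these shifts in the results on the receptors was not tested. The LPS libraries lay apart from each other on the second principal component of log2 CPM (19.3% of the variance), at 62.8 for LPS 1, -23.3 for LPS 2 and -66.3 for LPS 3.

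In the mouse annotation 7 of the 10 genes lie on chromosome 6. Clec4n, Clec4d and Clec4e are direct neighbours there, and Clec12a and Clec7a lie in a second group of lectin genes on the same chromosome. To show the DNA next to which the changes occurred, the 250 bases before the transcription start are printed for 2 lectin genes that rose and the 2 that fell, from RefSeq on GRCm38.p6, each 5′ to 3′ on the strand of its gene. Capitals mark matches on either strand to TTNNGCAA, a consensus of C/EBP factors, and to GAGGAA, a core of PU.1 sites.
Clec4e (chr6:123289872-123290121, minus strand): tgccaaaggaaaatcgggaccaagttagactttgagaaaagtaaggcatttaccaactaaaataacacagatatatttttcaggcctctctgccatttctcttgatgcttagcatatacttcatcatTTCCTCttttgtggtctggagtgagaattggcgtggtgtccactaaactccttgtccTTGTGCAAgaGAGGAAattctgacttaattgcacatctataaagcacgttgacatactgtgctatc
Clec4d (chr6:123261857-123262106, plus strand): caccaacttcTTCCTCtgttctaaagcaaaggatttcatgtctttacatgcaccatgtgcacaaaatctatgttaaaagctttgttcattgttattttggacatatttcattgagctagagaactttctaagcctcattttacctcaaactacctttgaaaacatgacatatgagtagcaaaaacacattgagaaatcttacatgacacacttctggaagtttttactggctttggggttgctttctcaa
Clec12a (chr6:129349994-129350243, plus strand): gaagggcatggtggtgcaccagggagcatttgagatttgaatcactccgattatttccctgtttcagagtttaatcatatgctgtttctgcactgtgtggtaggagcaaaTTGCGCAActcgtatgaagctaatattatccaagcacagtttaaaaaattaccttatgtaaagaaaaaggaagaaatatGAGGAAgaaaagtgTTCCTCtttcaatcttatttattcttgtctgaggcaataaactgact
Clec5a (chr6:40585806-40586055, minus strand): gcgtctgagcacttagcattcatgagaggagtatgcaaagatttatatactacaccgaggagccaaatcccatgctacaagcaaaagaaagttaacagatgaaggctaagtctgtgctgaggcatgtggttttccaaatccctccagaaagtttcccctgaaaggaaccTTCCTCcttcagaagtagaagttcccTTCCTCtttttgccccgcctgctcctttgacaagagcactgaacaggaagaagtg
Promoters were matched for 8 of the 10 genes, while Clec4n and Ripk2 had no entry. The C/EBP consensus was in the windows of Clec4e (TTGTGCAA, 66 to 59 bases before the start) and Clec12a (TTGCGCAA, 140 to 133 bases before it), one of which rose and the other fell. It occurs in 9.56% of 32851 such windows. GAGGAA was found for 5 of the 8 genes and in 23.3% of all windows, and TGANTCA, the AP-1 consensus, for Clec12a alone and in 6.75%. The NF-kB consensus of 10 bases matched none of the 8 genes and 7.25% of all windows. None of these matches overlapped another in the windows of the genes, and a match is a description of the letters, not a site.

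Of the 10 genes 7 rose with LPS (Clec4e, Clec4d, Clec4n, Card9, Nod1, Nod2 and Ripk2), 2 fell (Clec12a and Clec5a) and Clec7a did not pass the test, at an adjusted p under 0.05. Among all 16371 genes tested 12.7% rose and 10.9% fell, 23.6% together. The median log2 fold change of the 10 was 0.85, against -0.02 for all tested genes. The 10 genes were chosen with earlier results of these data known, so comparing them with all genes is a description only. In 9 of the 10 the libraries of the groups did not overlap, which held for 40.8% of tested genes. Rises ran from 1.39-fold for Card9 to 2.78-fold for Clec4n, and the falls were 1.63-fold for Clec5a and 3.49-fold for Clec12a.

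**Figure D1:**
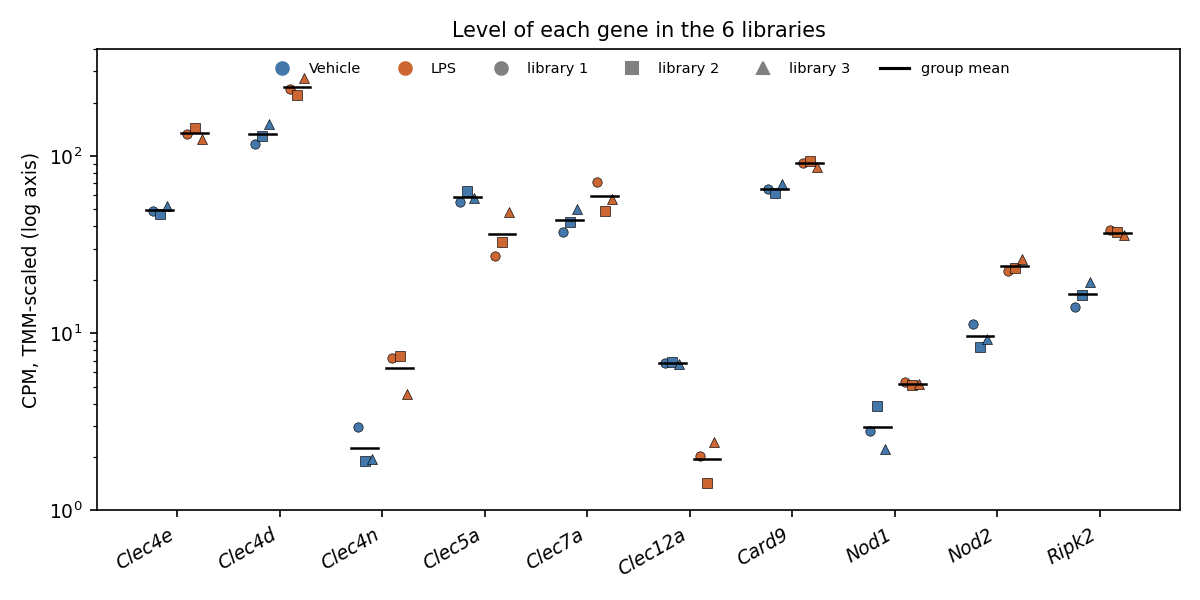
Level of each gene in CPM on a log axis, with Vehicle libraries in blue, LPS libraries in orange, a symbol for each library number and a line at the group mean. The groups overlap only for Clec7a, and Clec12a and Clec5a are the 2 genes that lie lower with LPS.

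Clec4e (ENSMUSG00000030142), known as Mincle, binds the mycobacterial cord factor and the nuclear protein Sap130 released by dead cells. It was measured at 48.8, 47.3 and 52.0 CPM in Vehicle 1, 2 and 3 and at 133, 144 and 125 CPM in LPS 1, 2 and 3. Every LPS library stood well above every Vehicle library, and the spread within each group was small. The log2 fold change was 1.44 ± 0.10, a 2.71-fold rise (adjusted p = 3.70e-05), and it lay between 1.39 and 1.49 when any library was left out.

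Clec4d (ENSMUSG00000030144), also called MCL, is a lectin of the same cluster that pairs with Mincle at the cell surface. It was read at 117, 129 and 151 CPM in the Vehicle libraries and 239, 219.8 and 276 CPM in the LPS libraries. The groups were apart, and LPS 3 was the highest. It rose 1.85-fold, with a log2 fold change of 0.89 ± 0.12 (adjusted p = 0.00151).

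Clec4n (ENSMUSG00000023349), or Dectin-2, recognises mannans of fungal walls and signals through Fcer1g. It was at 2.94, 1.89 and 1.96 CPM in Vehicle and 7.27, 7.41 and 4.51 CPM in LPS. LPS 3 was the lowest of its group for this gene and still exceeded every Vehicle library. It rose with a log2 fold change of 1.48 ± 0.29 (adjusted p = 0.00790), which rests on 92 to 391 estimated counts per library.

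The ratio of Clec4e to its neighbour Clec4d was higher with LPS, at -0.84, -0.61 and -1.14 on the log2 scale in LPS 1, 2 and 3 against -1.27, -1.45 and -1.54 in Vehicle 1, 2 and 3. The mean difference in log2 ratio was 0.55, and an exact two-sided permutation test over libraries gave p = 0.10, the smallest value that 3 against 3 libraries can give. The same p, also after adjustment over the 5 ratios computed, held for Clec4e to Clec7a (difference 0.99), Clec4e to Clec12a (3.25), Ripk2 to Card9 (0.69) and Nod2 to Nod1 (0.48). In each of these ratios the 3 LPS libraries lay above the 3 Vehicle libraries, and the design could not reach a p under 0.05. The difference in Nod2 to Nod1 was 0.17 without Vehicle 2, the Vehicle library with the lowest ratio (1.11), and 0.41 to 0.65 without any other library.

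Clec7a (ENSMUSG00000079293), or Dectin-1, is the receptor for fungal beta-glucans and carries an ITAM-like sequence in its own tail. It was found at 37.1, 42.5 and 50.4 CPM in Vehicle and 71.2, 49.0 and 57.5 CPM in LPS. LPS 2 fell below Vehicle 3, so the groups overlapped. The log2 fold change of 0.45 ± 0.17 did not pass the test (adjusted p = 0.0848), and its 95% interval ran from 0.07 to 0.83.

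Clec12a (ENSMUSG00000053063), or MICL, is an inhibitory lectin with an ITIM that senses uric acid crystals of dying cells. Its level was 6.76, 6.86 and 6.74 CPM in the Vehicle libraries and 2.02, 1.42 and 2.42 CPM in the LPS libraries. These levels rest on 75 to 409 estimated counts per library. The Vehicle libraries were almost equal, and each LPS library was far below them. This was a log2 fold change of -1.80 ± 0.24 (adjusted p = 0.00110), the largest change in size among the 10 genes, and it stayed between -1.99 and -1.61 without any one library.

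Clec5a (ENSMUSG00000029915), or MDL-1, is an activating receptor that signals through Tyrobp and Hcst. It was measured at 55.1, 63.3 and 58.2 CPM in Vehicle and 27.2, 32.7 and 48.5 CPM in LPS. All LPS libraries were lower, but LPS 3 stood much closer to the Vehicle libraries than LPS 1 did. Its log2 fold change was -0.70 ± 0.20 (adjusted p = 0.0358). The call held without LPS 3 (-0.98, adjusted p = 0.000966) and was lost without any of the other libraries, where the log2 fold change ran from -0.75 to -0.55 and the adjusted p from 0.0763 to 0.124.

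**Figure D2:**
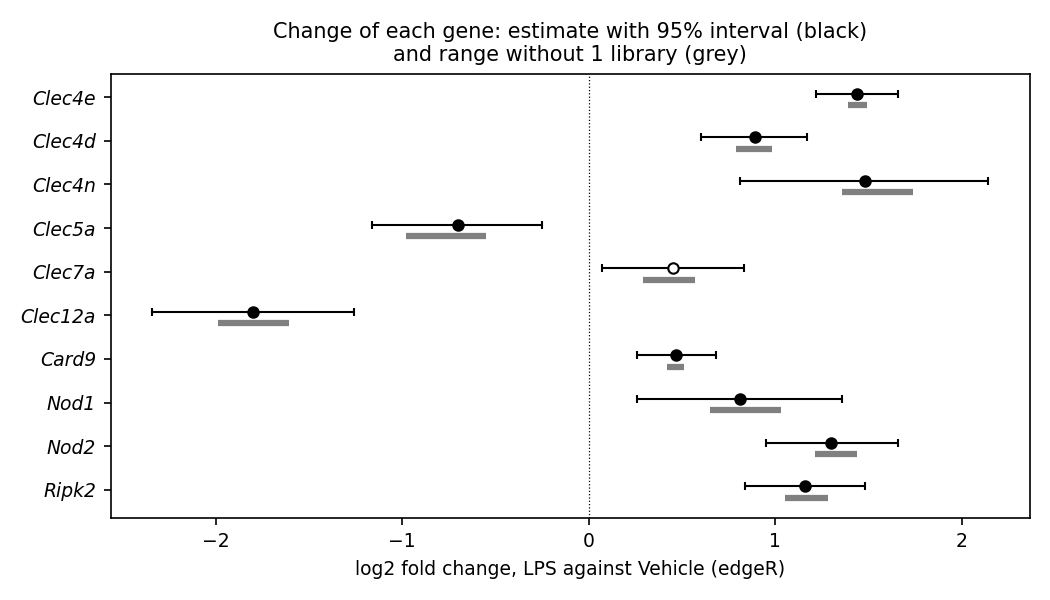
Log2 fold change of each gene, LPS against Vehicle, with its 95% interval in black and, in grey, the range of values when each library in turn was left out. Filled points passed the test and the open point, Clec7a at 0.45, did not. Clec12a at -1.80 is farthest from 0.

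Card9 (ENSMUSG00000026928) encodes the scaffold on which Syk-coupled lectins assemble Bcl10 and Malt1. It was at 65.1, 61.4 and 69.9 CPM in Vehicle and 91.7, 93.6 and 86.7 CPM in LPS. The change was modest and even, with groups apart. Card9 rose with a log2 fold change of 0.47 ± 0.09 (adjusted p = 0.00742). An antisense gene, Gm13562, overlaps 87 exonic bases of Card9, and it was at 0.19 ± 0.20 CPM in Vehicle and 0.20 ± 0.17 CPM in LPS (SD, n = 3).

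Nod2 (ENSMUSG00000055994) senses muramyl dipeptide, which is present in nearly all bacterial peptidoglycan. It was detected at 11.3, 8.38 and 9.31 CPM in Vehicle and 22.3, 23.4 and 26.1 CPM in LPS. The groups lay far apart relative to their spread. Nod2 rose 2.46-fold, a log2 fold change of 1.3 ± 0.16 (adjusted p = 0.000704).

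Nod1 (ENSMUSG00000038058) senses peptidoglycan that carries diaminopimelic acid, typical of Gram-negative bacteria. It was at 2.81, 3.86 and 2.22 CPM in Vehicle and at 5.29, 5.10 and 5.17 CPM in LPS. These levels rest on 105 to 269 estimated counts per library. The LPS libraries were nearly identical, and the Vehicle libraries varied from each other, with Vehicle 2 the highest. Nod1 rose by 0.81 ± 0.24 on the log2 scale, with an adjusted p = 0.0424 close to the threshold. The call was kept without Vehicle 2 (1.03, adjusted p = 0.0383) and lost without any of the other libraries, with an adjusted p of 0.0622 to 0.128, and when library totals replaced TMM (0.72, adjusted p = 0.0647).

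Ripk2 (ENSMUSG00000041135), the kinase and scaffold downstream of both receptors, was read at 14.1, 16.4 and 19.4 CPM in Vehicle and 38.0, 37.0 and 35.9 CPM in LPS. Every LPS library was nearly the same and exceeded the highest Vehicle library. Ripk2 rose 2.23-fold, a log2 fold change of 1.16 ± 0.14 (adjusted p = 0.000718). The 95% intervals were 0.95 to 1.66 for Nod2 and 0.84 to 1.48 for Ripk2.

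Levels of different genes were compared per kilobase of the longest annotated transcript. Clec4d was the most abundant of the 10 in both groups, at 100.2 ± 13 CPM per kb in Vehicle and 185 ± 21.6 in LPS (SD, n = 3), and Card9 came second with 33.6 ± 2.21 and 46.6 ± 1.83. In Vehicle Clec7a (19.0 ± 2.95), Clec5a (15.7 ± 1.11), Clec4e (10.3 ± 0.50) and Ripk2 (5.93 ± 0.94) followed. The lowest 4 were Clec12a (2.10 ± 0.02), Nod2 (2.05 ± 0.31), Clec4n (1.61 ± 0.42) and Nod1 (0.69 ± 0.19). The libraries of Clec7a and Clec5a overlapped in that order, as did those of Clec12a and Nod2 and of Nod2 and Clec4n.

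The order changed with LPS. Clec4e reached 27.9 ± 1.98 CPM per kb and overlapped Clec7a at 26.0 ± 4.91, while Clec5a was at 9.64 ± 2.95 and overlapped Ripk2 at 13.2 ± 0.38. Nod2 (5.07 ± 0.42) and Clec4n (4.56 ± 1.16) also overlapped, and Nod1 was at 1.2 ± 0.02. Clec12a was the lowest of all with 0.61 ± 0.16 CPM per kb. Its place in Vehicle depended on the length used: per kilobase of the union of exons it was at 1.23, below Nod2 (1.93) and Clec4n (1.60), and with LPS it was again the lowest (0.354).

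**Figure D3:**
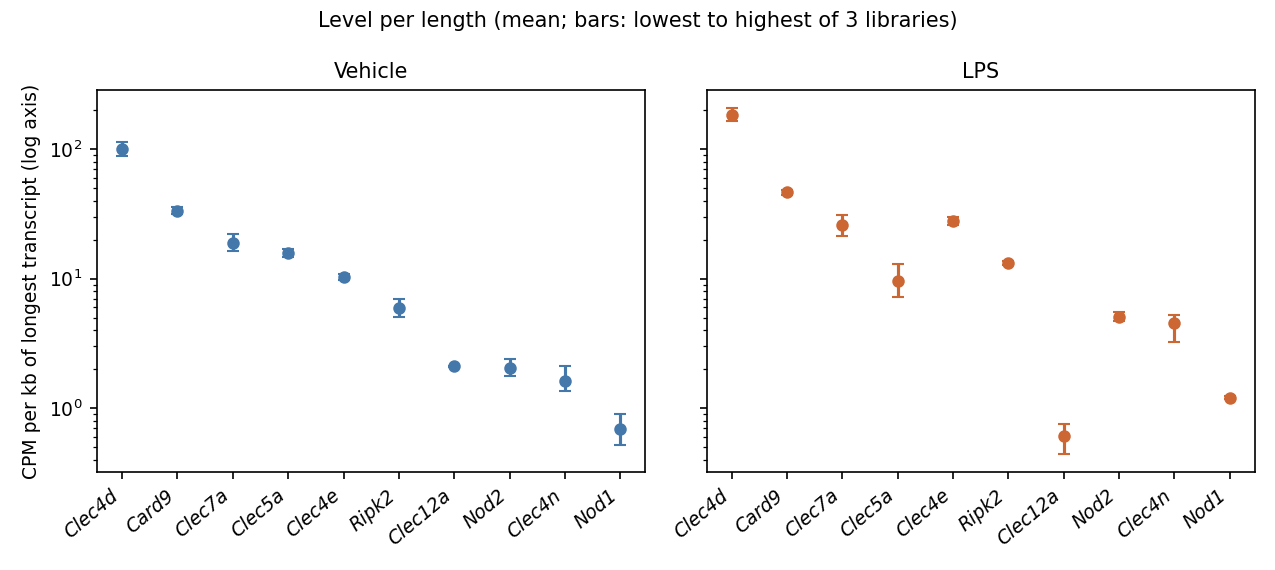
CPM per kilobase of the longest transcript on a log axis, as the mean with bars from the lowest to the highest of 3 libraries, with genes in their Vehicle order in both panels. Clec4d leads in both groups, and Clec12a is at 2.10 in Vehicle and 0.61 in LPS.

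In the annotated order the first cluster runs Clec4a1, Clec4a3, Clec4a4, Clec4b1, Clec4a2, Clec4b2, Clec4n, Clec4d and Clec4e. Its last 3 genes rose, whereas Clec4a2 and Clec4a3 fell. Clec4a2, the inhibitory receptor DCIR, was at 2.30, 1.93 and 1.94 CPM in Vehicle and 0.32, 0.30 and 0.16 CPM in LPS, a log2 fold change of -2.96 ± 0.41 (adjusted p = 0.00126). The LPS values lay near the floor of 3 count spacings (0.221, 0.207 and 0.213 CPM in LPS 1, 2 and 3). LPS 3 was below it, so the size of this fall is uncertain. Clec4a3 had -0.78 ± 0.21 (adjusted p = 0.0314). That call held without Vehicle 2 and was lost when any other library was dropped (up to 0.105) or with the replicate block (0.0574). Clec4a4, Clec4b1 and Clec4b2, which lie between, were at 0 in all 6 libraries, and Clec4a1 did not pass the test (1.74 ± 0.73, adjusted p = 0.120). The Vehicle values of Clec4a1 (0.314, 0 and 0.253 CPM) lay near or below the floor. Clec4a2 shares 4.03% of its 75-base words with Clec4a4 and Clec4b1, so reads can be split there.

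The second cluster, from Cd69 to Olr1, holds Clec12a and Clec7a. Between these 2 genes Clec12b was at 0 in all libraries, and Clec1b, Clec9a and Clec1a averaged 0.33, 0.02 and 0.10 CPM in Vehicle and 0.05, 0.05 and 0 CPM in LPS. Cd69, an early activation antigen at the edge of the cluster, was at 0.76 ± 0.53 CPM in Vehicle and 2.64 ± 0.03 CPM in LPS (SD, n = 3). It rose with 1.86 ± 0.45 (adjusted p = 0.0190), a call lost without Vehicle 3 or LPS 2 (up to 0.0559). Vehicle 1, at 0.215 CPM, lay near its floor of 0.184 CPM. The log2 fold change ran from 1.34 to 2.46 without 1 library, so the size of this rise is uncertain.

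**Figure D4:**
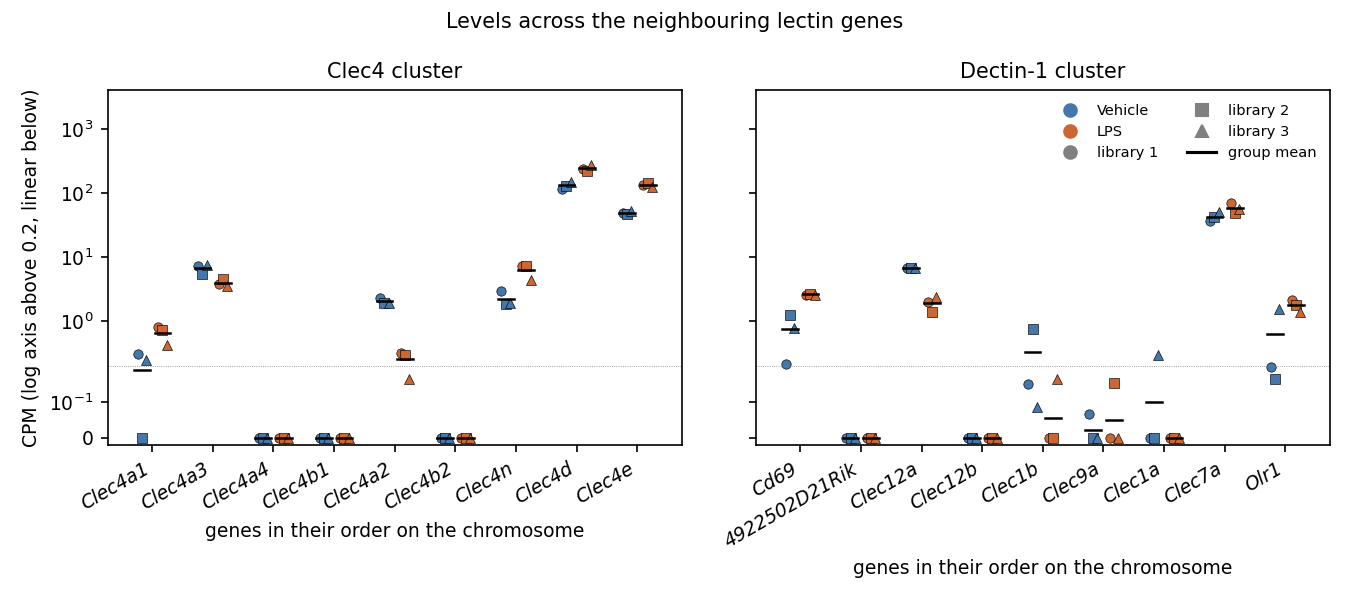
CPM of the genes in both chromosome 6 clusters in their annotated order, with the axis on a log scale above 0.2 CPM and linear below it, Vehicle in blue, LPS in orange and lines at group means. In the Clec4 cluster Clec4a2 and Clec4a3 lie lower with LPS and Clec4n, Clec4d and Clec4e higher. In the cluster of Clec7a (Dectin-1), 4922502D21Rik and Clec12b are at 0 throughout and Clec12a lies lower with LPS.

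Among other C-type lectin genes some rose and some fell. Of 34 in a list of myeloid and related lectins, 14 passed the filter, 2 rose, 5 fell and 7 did not pass the test. Shares over all tested genes were 12.7% for rises and 10.9% for falls. The median log2 fold change of the list was -0.05, against -0.02 for all tested genes. Mrc1, the mannose receptor, had -3.99 ± 0.45, and the galactose-binding lectins Clec10a and Mgl2 had -1.13 ± 0.23 and -1.17 ± 0.27 (adjusted p = 0.000264, 0.00875 and 0.0150). Mrc1 was at 2.86, 2.26 and 2.15 CPM in Vehicle and 0.160, 0.208 and 0.0821 CPM in LPS 1, 2 and 3. Those LPS values lay near or below the floor of 3 count spacings (0.221, 0.207 and 0.213 CPM), so the size of its fall is uncertain. Clec10a and Mgl2 are close copies that share 6.42% and 9.29% of their 75-base words with each other. The call of Mgl2 was lost without Vehicle 1 (adjusted p = 0.0505). Besides Cd69, Klra2 rose by 1.77 ± 0.23, with 2.49 ± 0.56 CPM in Vehicle and 8.44 ± 1.13 CPM in LPS (SD, n = 3).

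The signalling chain below the lectins changed in part. Of 18 genes, all tested, 6 rose, 2 fell and 10 did not pass, with a median of 0.19. Over all tested genes 12.7% rose and 10.9% fell, with a median of -0.02. Syk, the kinase that ITAM receptors recruit, was at 176, 162 and 177 CPM in Vehicle and 309, 322 and 335 CPM in LPS, a log2 fold change of 0.91 ± 0.08 (adjusted p = 0.000192). Every LPS library exceeded every Vehicle library by a wide margin. Vav1, an exchange factor that acts after Syk, had 0.74 ± 0.12, Bcl10 0.68 ± 0.17, and Cblb, a ubiquitin ligase that restrains the pathway, 0.62 ± 0.14. The call of Bcl10 held on dropping Vehicle 1 or LPS 3 and was lost on dropping any other library (adjusted p up to 0.0866, against 0.0201), and that of Cblb without Vehicle 2 (0.0688 against 0.0153). Rubcn and Ptpn6 also rose, with calls that were lost with total counts only. The call of Rubcn was also lost on dropping any library other than LPS 3 (adjusted p up to 0.0934). That of Ptpn6 was also lost on dropping any library other than LPS 2 or LPS 3 (up to 0.116). Malt1, the protease partner of Bcl10, did not pass, with 0.47 ± 0.16 (adjusted p = 0.0740). It passed without Vehicle 3 (0.61, adjusted p = 0.0486) and was at 0.30 without Vehicle 2.

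Of the partner chains, Tyrobp, which carries Clec5a, was at 175, 209 and 192 CPM in Vehicle and 157, 119.6 and 116 CPM in LPS. It fell with -0.56 ± 0.13 (adjusted p = 0.0178), a call lost without Vehicle 2, Vehicle 3 or LPS 2 (adjusted p up to 0.0813). Fcer1g, which carries Mincle and Dectin-2, was at 205, 203 and 283 CPM in Vehicle and 261, 239 and 317 CPM in LPS. Its libraries overlapped, and it did not pass (0.24 ± 0.16, 95% interval -0.12 to 0.60, adjusted p = 0.315). Hcst, through which Clec5a also signals, did not pass either (-0.34 ± 0.28, adjusted p = 0.426). It was at 4.74 ± 1.04 CPM in Vehicle and 3.70 ± 0.98 CPM in LPS (SD, n = 3), and the groups overlapped. Whether the chains changed differently from each other was not tested. Without Vehicle 2 only 2 genes of this list rose, and 3 without LPS 1.

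Cebpb, the transcription factor known to be needed for Mincle induction in macrophages, also rose. Whether it had any part in the rise of Clec4e was not tested. Cebpb was at 103, 91.5 and 86.8 CPM in Vehicle and 293, 233 and 275 CPM in LPS, a log2 fold change of 1.51 ± 0.11 (adjusted p = 7.05e-05). Transcripts of Tmem189 share 16.7% of its 75-base words. Tmem189 was at 243 ± 19.2 CPM in Vehicle and 281 ± 38.1 CPM in LPS (SD, n = 3). That gene did not pass the test (0.21 ± 0.11, adjusted p = 0.229). Sap130, whose protein is a ligand of Mincle, did not pass (0.41 ± 0.15, adjusted p = 0.0802). Its levels were 61.1 ± 5.70 CPM in Vehicle and 80.9 ± 15.6 CPM in LPS (SD, n = 3).

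Of 23 listed genes of NOD receptor signalling, 22 were tested, 6 rose, 1 fell and 15 did not pass, with a median of 0.02. For all tested genes the shares were 12.7% and 10.9%, 23.6% together, and the median was -0.02. Tnfaip3, the ubiquitin-editing enzyme A20 that limits Ripk2 signalling, was at 21.9 ± 0.71 CPM in Vehicle and 70.0 ± 2.35 CPM in LPS (SD, n = 3). It rose by 1.68 ± 0.10 on the log2 scale (adjusted p = 1.87e-05). Birc3, a ubiquitin ligase of the IAP family, had 1.10 ± 0.17. Rnf31, the catalytic subunit of the linear ubiquitin assembly complex, had 0.77 ± 0.16, Spata2 0.75 ± 0.10 and Sharpin 0.41 ± 0.10. The kinase gene Ikbkb also rose. The calls of Sharpin and Ikbkb (adjusted p = 0.0219 and 0.0262) were lost with total counts only and on dropping any library other than LPS 3. Xiap, the ligase that Ripk2 depends on, did not pass (-0.38 ± 0.17, adjusted p = 0.140), with 53.7, 73.2 and 86.6 CPM in LPS 1, 2 and 3 against 83.6, 100.4 and 94.9 CPM in Vehicle. Map3k7 was the gene that fell (-0.34 ± 0.11, adjusted p = 0.0483), and 7 of 16 alternatives lost that call. Without LPS 3 the list had 3 falls, Xiap among them (adjusted p = 0.0260).

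Among genes that handle peptidoglycan before it reaches the NOD receptors, Slc15a3 had the largest change. Its product is an endolysosomal transporter that delivers muramyl dipeptide to the cytosol. It was at 187, 172 and 179.9 CPM in Vehicle and 1358, 1542 and 1401 CPM in LPS, a log2 fold change of 3.0 ± 0.09 or 7.98-fold (adjusted p = 6.35e-07). The groups were separated by far more than their spread. Its neighbour Tmem132a shares 30.6% of its 75-base words and was at 25.2 ± 3.08 CPM in Vehicle and 98.1 ± 19.9 CPM in LPS (SD, n = 3), a rise of 1.96 ± 0.17 on the log2 scale, so the counts of the pair may be split. Slc15a4, a related transporter, did not pass (-0.54 ± 0.25, adjusted p = 0.172). Lyz2, the lysozyme that cleaves peptidoglycan, fell by 0.75 ± 0.10 on the log2 scale (adjusted p = 0.00124), with 1052 ± 28.2 CPM in Vehicle and 624 ± 74.9 CPM in LPS (SD, n = 3). It shares 5.96% of its words with Lyz1. Of 14 genes of this list 7 were tested, with 1 rise, 1 fall and 5 that did not pass. Their median was -0.54 on the log2 scale, so Slc15a3 does not stand for the list. The background median was -0.02, with 12.7% of genes rising and 10.9% falling, 23.6% together.

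**Figure D5:**
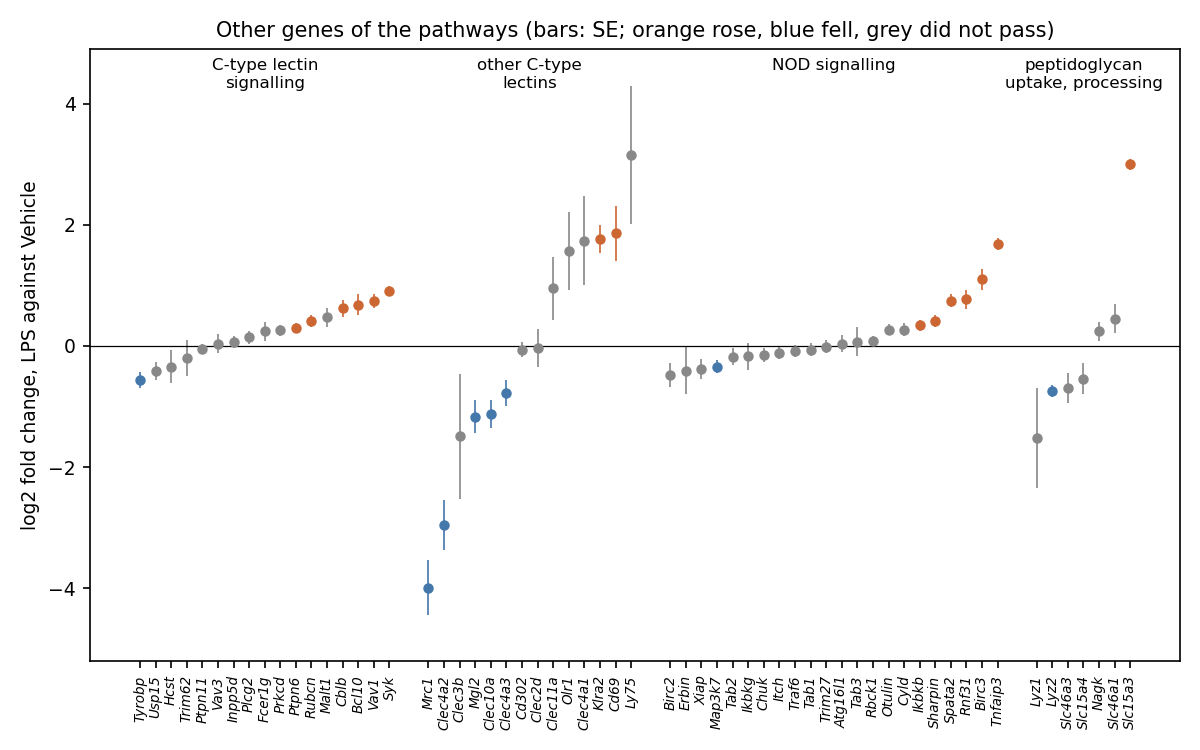
Log2 fold changes with SE of tested genes in 4 lists around the receptors, ordered by value within each list, in orange where they rose, blue where they fell and grey where they did not pass the test. Slc15a3 at 3.0 and Mrc1 at -3.99 are the called genes with the largest changes. With LPS Mrc1 lay near or below the floor of 3 count spacings, so the size of its fall is uncertain.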

How the data were processed

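RNA was measured in BV2 cells by sequencing of poly(A)-enriched libraries on an Illumina instrument, with 3 libraries given vehicle and 3 given LPS, per the labels. The authors deposited 1 table of whole numbers per gene and library, treated here as estimated counts because their low values are evenly spaced, and the labels do not record how they were made. The submitters' processing notes name StringTie 1.3.1, HISAT2, DESeq2 and Bowtie2 2.2.8, with no role. For build, annotation and use of strand, the sources used here give nothing. Columns were matched to samples by name, and 0 were left unmapped.

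Symbols, lengths and gene order came from GENCODE M21 (55141 of 55401 identifiers matched), promoters from RefSeq on GRCm38.p6. Shared sequence was counted as 75-base words of the longest transcript that occur in transcripts of another gene on either strand. For all 10 genes of interest the share was 0%.

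The test was edgeR 4.0.16 (R 4.3.3) with filterByExpr (minimum count 10, total 15), TMM scaling and the robust quasi-likelihood F-test, two-sided, with Benjamini-Hochberg adjustment over all tested genes and a threshold of 0.05. Every adjusted p is from this test unless another is named. The SE is the log2 fold change divided by the square root of F. Log2 CPM used a prior count of 2. The procedure was tested on simulated data. Alternatives were other scalings, filters and tests (DESeq2 1.42.0, limma 3.58.1 with voom), a replicate block and leaving out each library. Division of counts by their spacing and edgeR's earlier test were added after seeing the data. Genes named are all 10 members, called genes of each list (values for up to 6), the neighbours in both clusters and Syk, Fcer1g, Bcl10, Malt1, Xiap, Sap130, Cebpb, Slc15a3 and Slc15a4. Hcst and genes sharing sequence with those named were added after their values were seen. The members and lists were chosen with earlier results of these data known. A marker and a gene of the lectin signalling list, included in the counts, are not reported by name or plotted here. The floor of 3 spacings is 0.184 to 0.234 CPM per library and covers only counting error: no molecular identifiers were counted.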

Additional observations from a re-analysis of the deposited data

How the results depend on the processing

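Over the 16 alternatives run, Clec4e, Clec4d, Clec4n, Clec12a, Card9, Nod2 and Ripk2 kept direction and call, with a largest adjusted p of 0.0440 for Card9, and Clec7a never passed (adjusted p from 0.0552 to 0.266). Clec5a and Nod1 were the fragile calls, as given above. Leaving out 1 library gave a log2 fold change of -0.98 to -0.55 for Clec5a and 0.65 to 1.03 for Nod1. Nod1 also lost its call with total counts only (0.72), with no filter (0.81, adjusted p = 0.0505), with the edgeR test used before version 4 (0.81, adjusted p = 0.0615) and with the replicate block (0.81, adjusted p = 0.0598). The number of the 10 genes that rose was 6 or 7, and that of falls 1 to 2 without 1 library. Over all genes, without 1 library, 1291 to 2450 rose and 1053 to 2085 fell. With total counts only 42.2% of called genes were higher, against 53.9%, and the median change of all genes was -0.10 on the log2 scale, against -0.02.

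Without 1 library, the rises and falls were 2 to 6 and 1 to 3 in the lectin signalling list, 1 to 2 and 3 to 5 among other lectins, and 0 to 3 falls in the NOD signalling list. The falls were 0 to 1 both among other NOD-like receptors and among CARD scaffolds. Map3k7 lost its call, leaving 0 falls in the NOD list, with no filter, with edgeR's earlier test and with the block. With edgeR's earlier test 1 of the other lectins rose, as Cd69 lost its call. The cause was not tested. Per kilobase of the union of exons the Vehicle levels were 82.9 for Clec4d, 28.6 for Card9 and 1.23 for Clec12a, and the LPS levels 153, 39.6 and 0.354 for the same genes and 1.02 for Nod1.

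The labels do not say that the numbers pair the libraries, so they were not taken to do so. Deviations from the group means correlated at 0.073, 0.045 and 0.058 between libraries with the same number. These values are small, but every library correlated best with its own number (-0.062 to 0.008 between different numbers). Whether libraries with the same number share a batch was not tested. With the replicate block 2033 genes were higher and 1784 lower, against 2082 and 1782, and of Cebpb and Sap130 both rose (2 against 1). Ratios between members kept their sign in the 8 alternatives run for them. Without 1 library their differences ran from 0.17 to 0.65 for Nod2 to Nod1, 0.43 to 0.69 for Clec4e to Clec4d, 0.81 to 1.14 for Clec4e to Clec7a, 2.99 to 3.46 for Clec4e to Clec12a and 0.58 to 0.76 for Ripk2 to Card9. Depth limits Clec4n, Clec12a and Nod1 most, with 75 to 409 estimated counts.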

Other observations

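Among genes related to the receptors but outside their direct pathways, Card6, a CARD-containing protein, was at 6.70 ± 1.35 CPM in Vehicle and 14.9 ± 3.24 CPM in LPS (SD, n = 3). It rose by 1.15 ± 0.22 on the log2 scale (edgeR, adjusted p = 0.00721), and 8.63% of its 75-base words also occur in Gm16077. It was the 1 gene called of 4 tested CARD scaffolds, whose median was -0.14, against 23.6% of all genes called. Of 3 tested NOD-like receptors, Nlrp10 fell by 1.02 ± 0.24 on the log2 scale (edgeR, adjusted p = 0.0183). Its levels were 8.12 ± 0.78 CPM in Vehicle and 4.02 ± 1.2 CPM in LPS (SD, n = 3). The call of Nlrp10 was lost when Vehicle 2 or Vehicle 3 was dropped (adjusted p up to 0.0718).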
